A study of Mus musculus with 20 samples.

Results

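The 45 genes described here encode members of enzyme families that write or erase histone methylation, or core subunits of such enzymes. The sites concerned are other than lysine 79 of histone H3. The genes were chosen by name as histone methyltransferases and demethylases, and all 45 were found among the 22048 protein-coding genes of the count table. Not every member acts on histones, since Setd3 is a methyltransferase of actin. All 45 also passed the filter on low counts that left 13072 genes for testing. The set holds 9 genes for methylation of H3K4, 5 for H3K36 and 7 for H3K9, 8 SMYD and other SET domain proteins, 2 flavin-dependent demethylases, 11 demethylases with a JmjC domain and 3 protein arginine methyltransferases. The comparison addresses the question of whether enzymes of other histone marks change when DOT1L, which methylates H3K79, is lost or inhibited.

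The 20 RNA libraries came from CD4+ T cells isolated out of the spleen and the peripheral lymph nodes of mice, with 2 libraries for each of 10 groups. WT mice carried a CD4Cre transgene alone, and KO mice carried CD4Cre together with DOT1L FL/FL, alleles of the gene flanked by recombination sites, so both genotypes expressed the recombinase. The regulatory sequences of Cd4 drive this Cre, which acts from the thymus onward. Naive WT and KO libraries came from the cells before culture. Th1 and Th2 libraries of both genotypes came from viable CD4+ cells sorted after 4 days of stimulation by anti-CD28 and anti-CD3, both coated on the plate at 1 µg/ml. All cultures had IL-2 at 10 ng/ml. For Th1, IL-12 (10 ng/ml) was added while IL-4 was blocked by antibody (10 µg/ml), and for Th2, IL-4 (10 ng/ml) was added while IFN-γ was blocked by antibody (10 µg/ml). WT Th1 and Th2 cultures were also grown with 1 µM SGC0946, a DOT1L inhibitor, or 1 µM SGC0649, its control compound. The labels used here state neither the age, sex and strain of the mice nor whether a group's 2 libraries stem from different animals, so the p-values measure the spread between these libraries, which may be technical.

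Histone lysine methyltransferases transfer methyl groups from S-adenosylmethionine to particular lysines, most of them through a SET domain, whereas DOT1L has no SET domain. Methylation of H3K4 marks promoters and enhancers of active genes, methylation of H3K36 follows transcribing RNA polymerase into gene bodies, and methylation of H3K9 is a mark of silent chromatin. Demethylases of the LSD family use a flavin cofactor and those of the JmjC family use iron and oxoglutarate, while PRMT enzymes methylate arginines on histones and on many other proteins. In CD4+ T cells, these enzymes are known for their part in silencing or opening the genes of alternative helper programs.

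Each library held between 9704500 and 13025588 counts on protein-coding genes, and the 45 genes together took 0.535% to 0.856% of them. Dot1l, read first as a check of the genotype, stood at 163 and 171 CPM (the usual counts scaled to library size, with TMM factors, given for replicate 1 and then 2 here and below) in WT and 146 and 166 CPM in KO naive libraries, which overlapped. It stood at 176 and 186 CPM in WT Th1 and 131 and 146 CPM in KO Th1, and at 148 and 164 CPM in WT Th2 and 113 and 92.5 CPM in KO Th2, without overlap. Its log2 fold changes were -0.10 ± 0.11 in naive, -0.39 ± 0.11 in Th1 and -0.60 ± 0.11 in Th2 cells (adjusted p = 0.544, 0.00841 and 2.69e-04), of which the Th1 change did not pass without WT Th1 replicate 2 or KO Th1 replicate 1 (log2 -0.36 and -0.32, adjusted p = 0.0604 and 0.0893). Reads on exons outside the deleted part are counted too, so these levels check the genotype weakly. Pan-T cell markers (8 genes) summed to 2318 to 5349 CPM in the 20 libraries. In KO naive cells 4 of the 8 were lower and 1 higher (median log2 fold change -0.36), in KO Th1 cells 6 were lower and 1 higher (median -0.72), and in KO Th2 cells 3 were lower and 4 higher (median 0.25). Cd4, one of the 8, was lower in all 3 (-1.29, -2.32 and -1.76). Markers of other cells also differed by genotype. In KO naive cells 7 of 8 myeloid, 4 of 6 erythroid and 3 of 8 mast cell and basophil genes were higher. In KO Th1 cells 8 of 8 mast cell and basophil, 3 of 8 myeloid and 2 of 4 NK cell genes were higher. In KO Th2 cells both Cd8a and Cd8b1 were higher, as were 4 of 8 myeloid genes, with 1 lower. Of all genes tested, 16%, 24.8% and 26.5% were higher in KO naive, Th1 and Th2 cells. All libraries expressed genes of the Y chromosome. Replicates of the same group differed by more than counting error in all 10 groups.

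Read per length of transcript, the 45 genes were well expressed. Their median level over the 20 libraries was 15.7 CPM per kilobase of exon against 7.51 for all genes tested. Ehmt2 was the highest at 48.5 CPM per kilobase, followed by Whsc1l1 at 38.7 and Kdm4b at 33.0, and Suv39h2 was the lowest at 1.98, followed by Smyd3 at 2.28 and Smyd4 at 3.35. The level of a gene varied little for some and much for others. The highest library exceeded the lowest 1.18-fold for Setdb1, 1.33-fold for Setd3 and 1.44-fold for Kdm1a, which encodes LSD1, but 7.38-fold for Suv39h2, 6.71-fold for Setd1b and 6.19-fold for Smyd5, around a median of 2.89-fold.

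**Figure D1:**
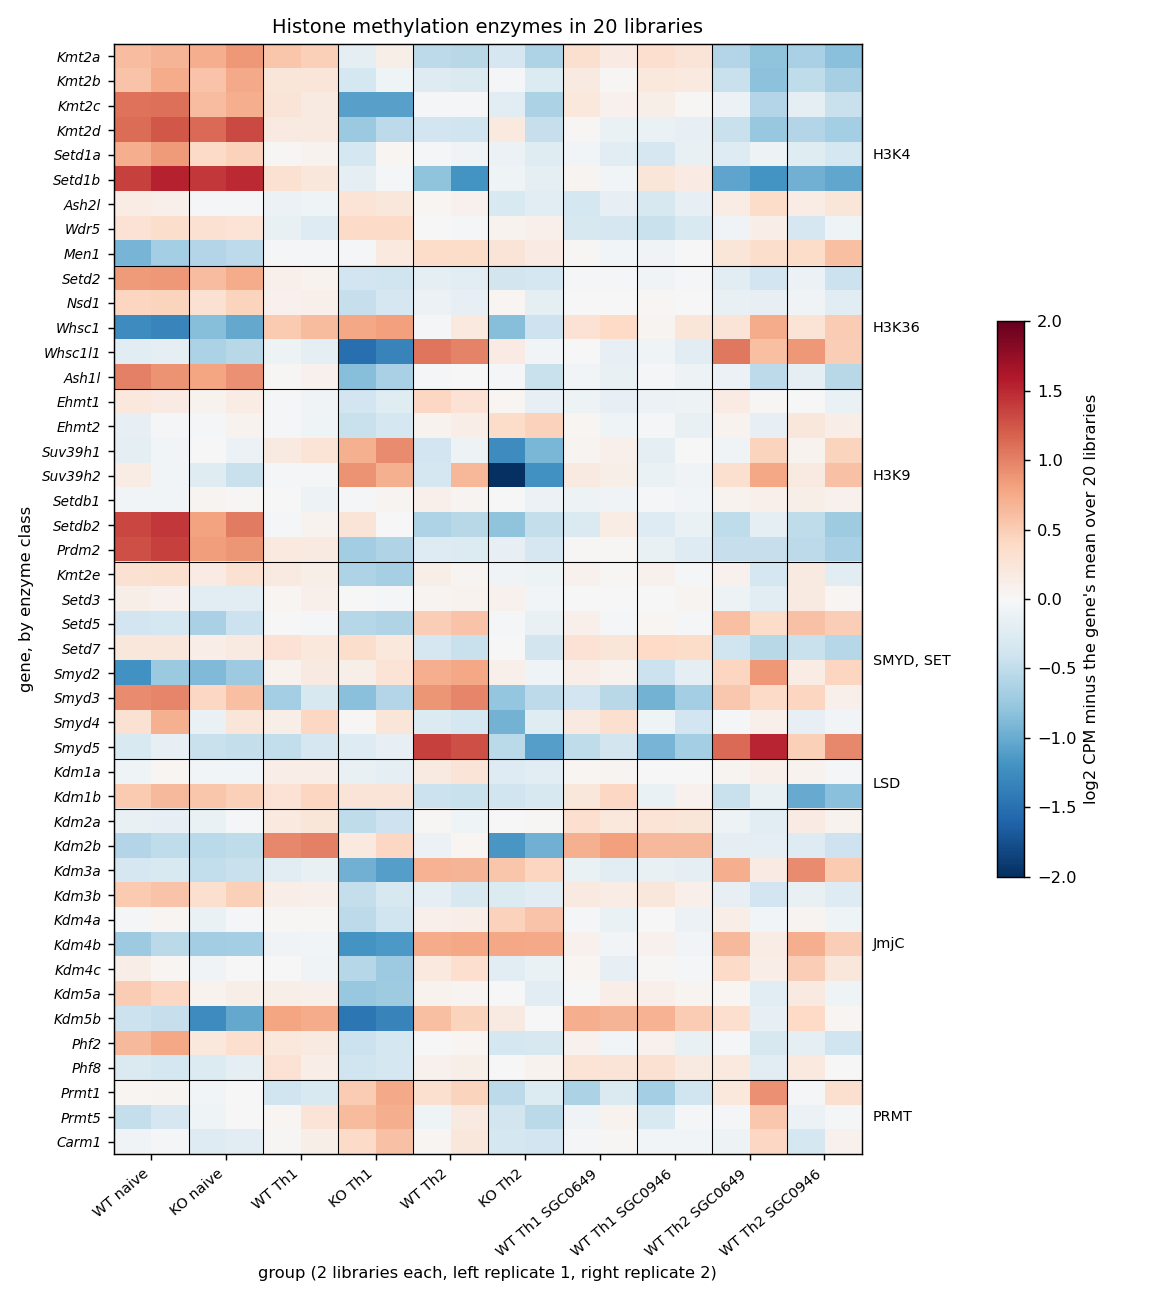
Each row is 1 of the 45 genes, grouped by class, and each column is 1 of the 20 libraries; colour gives log2 CPM minus the gene's mean over all libraries. KO Th1 columns are blue (below the mean) for the JmjC demethylases other than Kdm2b and red for the 3 arginine methyltransferases, and naive columns are red for the Kmt2 and Setd1 genes of the H3K4 class.

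Deletion of Dot1l changed the RNA of 40 of the 45 genes in at least 1 of naive, Th1 and Th2 cells (88.9%), as it did that of 79.3% of all 13072 genes tested. A change is called here at an adjusted p under 0.05 in edgeR's quasi-likelihood test over all 13072 genes, and changes are log2 fold changes ± SE from 2 libraries per group. In naive cells, 10 of the 45 were lower in KO and 0 were higher, where 12.4% of all genes tested were lower and 16% higher. At an unadjusted p under 0.05, 3 of the 45 (Men1, Whsc1 and Prmt5) were higher in KO naive cells, and DESeq2 and limma voom likewise called none higher at the adjusted threshold. A fit with the replicate number as a block called Whsc1 and Prmt5 higher, as did a fit on the 4 naive libraries alone, and leaving out WT naive replicate 2 called Men1 higher. In Th1 cells, 26 were lower and 7 higher, against 25.8% and 24.8% of all genes. In Th2 cells, 19 were lower and 3 higher, against 26.9% and 26.5%. The median log2 fold change of the 45 genes was -0.08 in naive, -0.38 in Th1 and -0.17 in Th2 cells, and that of all genes tested was 0.01, 0.01 and -0.01. Whether lower values mean less RNA per cell or fewer cells of a kind that expresses the gene cannot be told apart in bulk RNA.

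The naive count fell whichever of the 4 libraries was left out: without WT naive replicate 1 it was 4 genes, without WT naive replicate 2 it was 5 (4 lower and Men1 higher), without KO naive replicate 1 it was 3 and without KO naive replicate 2 it was 7. Among the 10 genes, Kdm5b, Prdm2 and Setd3 stayed called whichever library was left out. In Th1 cells, 26 of the 33 called genes stayed called, but the number of higher genes was 3 without WT Th1 replicate 1 and 4 without KO Th1 replicate 2. In Th2 cells, 15 of the 22 stayed called.

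**Figure D2:**
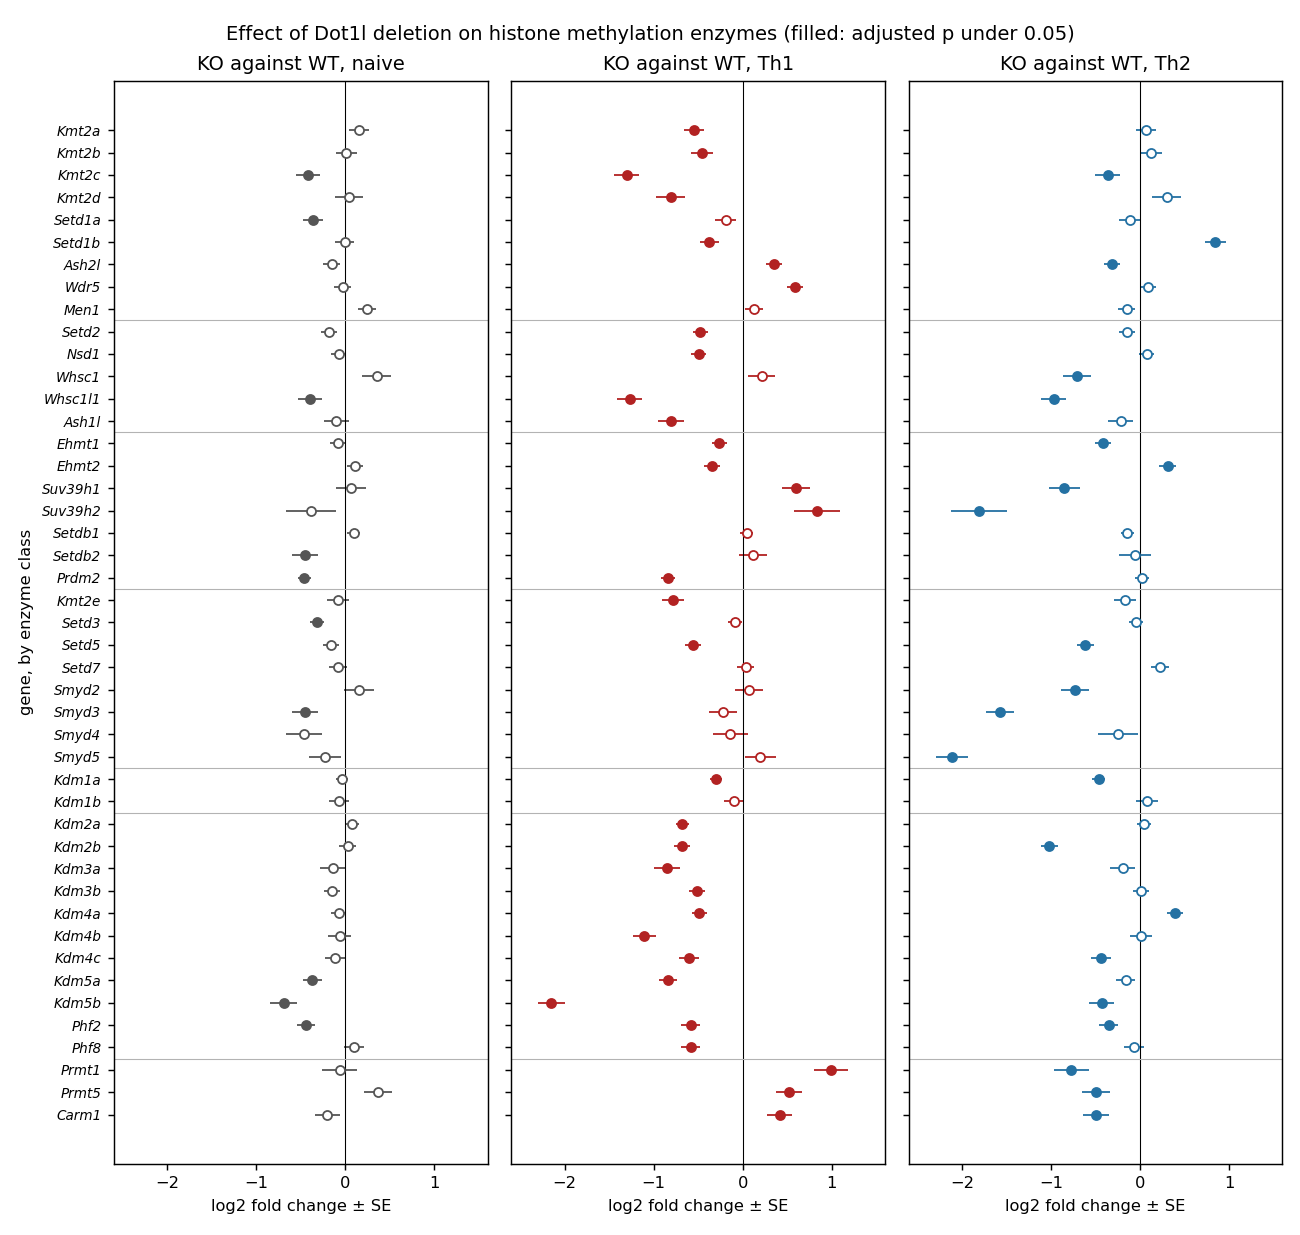
Each point is the log2 fold change of KO against WT for 1 gene (x axis, bars ± SE, 2 libraries per group) in naive, Th1 and Th2 cells, with genes on the y axis in the order of the enzyme classes. Filled points passed the test: 10 in naive, 33 in Th1 and 22 in Th2 cells, and the arginine methyltransferases at the bottom lie to the right of 0 in Th1 and to the left in Th2.

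The patterns over the 3 cell states differed from gene to gene. The most common was a fall in Th1 cells without a call elsewhere, which 12 genes showed, or 26.7% of the 45 against 7.56% of all genes tested (Ash1l, Kdm2a, Kdm3a, Kdm3b, Kdm4b, Kmt2a, Kmt2b, Kmt2d, Kmt2e, Nsd1, Phf8 and Setd2). Kdm5b, Kmt2c, Phf2 and Whsc1l1 were lower in KO in all 3 states, or 8.89% of the 45 against 3.37% of all genes tested. With single libraries left out, the naive calls of Kmt2c, Phf2 and Whsc1l1 were lost, as were the Th2 calls of Kdm5b, Kmt2c and Phf2. Ehmt1, Kdm1a, Kdm2b, Kdm4c and Setd5 were lower in both cultures but not called in naive cells, Kdm5a and Prdm2 in naive and Th1 cells, and Smyd3 in naive and Th2 cells. Smyd2, Smyd5 and Whsc1 were lower in Th2 alone among the calls, Setd1a, Setd3 and Setdb2 in naive cells alone, and Wdr5 was higher in Th1 alone. Kdm1b, Men1, Setd7, Setdb1 and Smyd4 passed in none of the 3 comparisons. Of these, the replicate block called Smyd4 lower in naive and Setd7 higher in Th2 cells, the fit on all annotated genes called Setd7 in Th2, and leaving out KO Th2 replicate 2 called both Setd7 (higher) and Smyd4 (lower) in Th2.

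A further 9 genes changed in opposite directions in the 2 cultures. Ash2l, Carm1, Prmt1, Prmt5, Suv39h1 and Suv39h2 were higher in KO Th1 and lower in KO Th2 cells, and Ehmt2, Kdm4a and Setd1b were lower in KO Th1 and higher in KO Th2 cells. Of all genes tested, 4.48% were higher in Th1 and lower in Th2 and 5.38% the reverse, against 13.3% and 6.67% of the 45. The difference between the Th1 and the Th2 effect passed its own test for all 9, as it did for all 1289 genes with opposite calls. Tested in this way over the 45 genes, 12 effects were higher in Th1 than in Th2 and 19 were lower, where 22% and 24.3% of all genes were. Against naive cells, the Th1 effect was higher for 5 genes and lower for 20 (all genes 10.7% and 16.9%), a count of 25 that was 15 without KO Th1 replicate 1 and 16 without KO naive replicate 2. The Th2 effect was higher than the naive one for 3 genes and lower for 13 (all genes 17% and 18.7%). Of the 31 differences between Th1 and Th2, 28 stayed called whichever library was left out, and those of Setd2, Kdm2b and Ash1l did not. These 3 differences share libraries with each other.

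The promoters of the genes that rose in KO Th1 and fell in KO Th2 are shown because these genes shared both calls with all libraries fitted. With single libraries left out, each of them except Prmt1 lost its Th1 call, its Th2 call or both. RefSeq (GRCm38.p6) gave a window for 4 of the 6, and for 30 of the 45 genes in all. The starts of Suv39h1 are numbered by coordinate, so its first start lies downstream of its second on the strand of the gene. The lines give, 5′ to 3′ on the strand of the gene, the longest stretch of the 250 bases before the transcription start that lies in no exon. Bases are in lower case, with capitals for matches on either strand to CCAAT (read as ATTGG on the other strand), to the E-box CACGTG or to an E2F site (TTTCCCGC, TTTGGCGC, TTTCGCGC or TTTGCCGC), none of which overlap.
Prmt1 (chr7:44986569-44986670, minus strand): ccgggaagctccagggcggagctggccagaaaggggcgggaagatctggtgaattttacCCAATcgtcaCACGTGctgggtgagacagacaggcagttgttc
Prmt5 (chr14:54517526-54517720, minus strand): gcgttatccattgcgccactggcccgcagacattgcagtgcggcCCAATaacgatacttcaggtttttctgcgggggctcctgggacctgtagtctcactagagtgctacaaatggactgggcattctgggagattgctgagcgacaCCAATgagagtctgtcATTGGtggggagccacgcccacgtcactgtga
Suv39h1, first start (chrX:8074362-8074543, minus strand): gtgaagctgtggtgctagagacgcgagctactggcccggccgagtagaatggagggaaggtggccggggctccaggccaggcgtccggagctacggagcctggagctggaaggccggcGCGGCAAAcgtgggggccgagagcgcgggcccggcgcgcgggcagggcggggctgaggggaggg
Suv39h1, second start (chrX:8074761-8075010, minus strand): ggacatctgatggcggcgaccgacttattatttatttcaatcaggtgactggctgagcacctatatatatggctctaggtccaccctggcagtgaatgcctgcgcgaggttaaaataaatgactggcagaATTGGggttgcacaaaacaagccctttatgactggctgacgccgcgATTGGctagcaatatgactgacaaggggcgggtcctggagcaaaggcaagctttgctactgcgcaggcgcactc
Suv39h2 (chr2:3475032-3475236, minus strand): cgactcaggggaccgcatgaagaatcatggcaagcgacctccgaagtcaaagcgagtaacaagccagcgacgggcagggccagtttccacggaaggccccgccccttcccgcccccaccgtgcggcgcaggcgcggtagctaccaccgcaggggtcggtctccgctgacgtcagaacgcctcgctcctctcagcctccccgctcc
In the whole 250 bases, CCAAT was found for Prmt1, Prmt5 and Suv39h1, and for 14 of the 30 genes (46.7%), counting a gene once if any of its windows held it. Counted the same way, 37.5% of 27025 genes held it, and by window 33.8% of 32851 windows of the same length. The E-box was found for Prmt1 among the 4 (all genes 6.86%, all windows 6.02%) and the E2F site for Suv39h1 (all genes 2.16%, all windows 1.86%). A match describes these letters and is not a measured binding site.

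Genes of H3K4 methylation fell more often than they rose in KO Th1 cells, with 5 of 9 lower and 2 higher (median -0.38). Of all genes tested, 25.8% were lower and 24.8% higher there. In KO Th2 cells 2 of the 9 were lower and 1 higher (median 0.06). These shares, 22.2% and 11.1%, lie below the 26.9% and 26.5% of all genes. Kmt2c, which methylates H3K4 at enhancers (chromosome 5, 25271798 to 25498783, minus strand, GRCm38 here and below), had 267 and 253 CPM in WT Th1 and 106 and 105 CPM in KO Th1 libraries. The KO libraries lay well below the WT ones, with a log2 fold change of -1.31 ± 0.14 (adjusted p = 1.40e-06). In naive cells, Kmt2c had 474 and 478 CPM in WT and 342 and 368 CPM in KO (-0.42 ± 0.14, adjusted p = 0.0289), and in Th2 cells 217 and 218 CPM and 193 and 144 CPM (-0.36 ± 0.14, adjusted p = 0.0352), with all KO libraries below all WT libraries in both. Kmt2d, its close relative, had 495 and 496 CPM in WT Th1 and 261 and 305 CPM in KO Th1 (-0.81 ± 0.16, adjusted p = 5.83e-04). In Th2 cells its libraries overlapped, at 338 and 333 CPM in WT and 504 and 319 CPM in KO, with a value of 0.30 ± 0.16 (adjusted p = 0.128). Kmt2a and Kmt2b, the MLL enzymes that act with menin, fell in KO Th1 cells by 0.55 and 0.46 on the log2 scale (adjusted p = 8.59e-04 and 0.00522) and had values of 0.06 and 0.13 in Th2 cells.

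Setd1b, an enzyme that trimethylates H3K4 at promoters (chromosome 5, 123142193 to 123168629, plus strand), moved in opposite directions. It stood at 95.4 and 90.4 CPM in WT Th1 and 67.6 and 75.5 CPM in KO Th1, but at 44.0 and 33.6 CPM in WT Th2 and 72.5 and 67.2 CPM in KO Th2. The KO libraries were below the WT ones in Th1 (-0.38 ± 0.11, adjusted p = 0.00785) and above them in Th2 (0.85 ± 0.11, adjusted p = 8.74e-06). In naive cells it was far higher and the genotypes overlapped, at 200.2 and 225 CPM in WT and 205 and 218 CPM in KO (-0.01 ± 0.10, adjusted p = 0.976). Its paralog Setd1a had 72.2 and 78.2 CPM in WT naive and 56.8 and 60.3 CPM in KO naive libraries (-0.36 ± 0.11, adjusted p = 0.0254) and values of -0.19 in Th1 and -0.12 in Th2 that did not pass. Of the subunits that all these complexes share, Wdr5 rose from 58.4 and 53.6 CPM in WT Th1 to 84.4 and 84.2 CPM in KO Th1 (0.59 ± 0.09, adjusted p = 6.23e-05), with no overlap. Ash2l, the other such subunit in this set, had 55.7 and 56.5 CPM in WT Th1 and 72.8 and 70.1 CPM in KO Th1 (0.35 ± 0.09, adjusted p = 0.00431). Its Th2 levels were 61.7 and 63.6 CPM in WT and 48.7 and 52.1 CPM in KO (-0.31 ± 0.09, adjusted p = 0.00913). Men1, which encodes menin, had values of 0.24, 0.13 and -0.15 in naive, Th1 and Th2 cells.

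Several of these calls were lost with a library left out. In naive cells, Kmt2c was not called without WT naive replicate 1, WT naive replicate 2, KO naive replicate 1 or KO naive replicate 2 (log2 -0.43, -0.41, -0.37 and -0.47, adjusted p = 0.101, 0.120, 0.181 and 0.0614) and Setd1a without WT naive replicate 1, WT naive replicate 2, KO naive replicate 1 or KO naive replicate 2 (log2 -0.42, -0.30, -0.32 and -0.40, adjusted p = 0.0535, 0.174, 0.174 and 0.0554). In Th1 cells, Setd1b was not called without WT Th1 replicate 1 or KO Th1 replicate 1 (log2 -0.35 and -0.31, adjusted p = 0.0584 and 0.0822) and Kmt2b without KO Th1 replicate 1 (log2 -0.34, adjusted p = 0.0736). In Th2 cells, Kmt2c was not called without WT Th2 replicate 1, WT Th2 replicate 2 or KO Th2 replicate 2 (log2 -0.34, -0.35 and -0.17, adjusted p = 0.130, 0.126 and 0.343) and Ash2l without WT Th2 replicate 2 or KO Th2 replicate 1 (log2 -0.28 and -0.28, adjusted p = 0.0630 and 0.0659).

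Of the 5 enzymes of H3K36 methylation, 4 fell in KO Th1 cells and 2 in KO Th2 cells, against 25.8% and 26.9% of all genes. Whsc1l1, which encodes NSD3 (chromosome 8, 25601601 to 25719667, plus strand), had 534 and 501 CPM in WT Th1 and 202 and 227 CPM in KO Th1, and 1199 and 1139 CPM in WT Th2 and 638 and 553 CPM in KO Th2. KO libraries were lower throughout, with changes of -1.27 ± 0.14 (adjusted p = 1.88e-06) in Th1 and -0.97 ± 0.14 (adjusted p = 1.75e-05) in Th2. In naive cells the levels were 497 and 502 CPM in WT and 368 and 392 CPM in KO (-0.40 ± 0.14, adjusted p = 0.0423), a call that was lost without WT naive replicate 1, WT naive replicate 2, KO naive replicate 1 or KO naive replicate 2 (log2 -0.40, -0.38, -0.35 and -0.43, adjusted p = 0.125, 0.155, 0.224 and 0.0835). Its paralog Whsc1, which encodes NSD2, did not pass in Th1 cells, where 222 and 241 CPM in WT and 265 and 273 CPM in KO gave 0.21 ± 0.15 (adjusted p = 0.2503). In Th2 cells Whsc1 had 152 and 178 CPM in WT and 86.3 and 116 CPM in KO (-0.71 ± 0.16, adjusted p = 0.00125). Setd2, the enzyme of H3K36 trimethylation, Nsd1 and Ash1l fell in KO Th1 cells by 0.47, 0.49 and 0.81 on the log2 scale (adjusted p = 3.07e-04, 1.67e-04 and 2.21e-04) and did not pass in naive or Th2 cells.

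Of the 7 enzymes of H3K9 methylation, 2 were lower in KO naive cells, where 12.4% of all genes were. In KO Th1 cells 2 were higher and 3 lower, against 24.8% and 25.8% of all genes. In KO Th2 cells 1 was higher and 3 lower, against 26.5% and 26.9%. Suv39h1 (chromosome X, 8061171 to 8074760, minus strand) and Suv39h2 (chromosome 2, 3455815 to 3475031, minus strand) encode the pair that trimethylates H3K9 in constitutive heterochromatin. Suv39h1 had 67.8 and 72.8 CPM in WT Th1 and 97.6 and 116 CPM in KO Th1, and 46.2 and 55.8 CPM in WT Th2 and 24.9 and 31.7 CPM in KO Th2. Suv39h2 was less abundant, with 7.90 and 7.78 CPM in WT Th1, 14.9 and 13.1 CPM in KO Th1, 6.30 and 12.7 CPM in WT Th2 and 2.01 and 3.45 CPM in KO Th2, where the last 2 values rest on 23 and 32 counts. For both genes the KO libraries were above WT in Th1 and below WT in Th2, although the WT Th2 libraries of Suv39h2 lay far apart. The changes of Suv39h1 were 0.60 ± 0.16 (adjusted p = 0.00584) in Th1 and -0.85 ± 0.18 (adjusted p = 7.32e-04) in Th2. Those of Suv39h2 were 0.84 ± 0.26 (adjusted p = 0.0127) and -1.81 ± 0.32 (adjusted p = 1.31e-04). The Th1 effect exceeded the Th2 effect by 1.45 ± 0.24 (adjusted p = 1.48e-04) for Suv39h1 and by 2.65 ± 0.41 (adjusted p = 6.82e-05) for Suv39h2, the last being the highest difference of the 45 genes. In naive cells neither passed (0.06 and -0.39). The Th1 rise of Suv39h1 was not called without WT Th1 replicate 1 or KO Th1 replicate 2 (log2 0.54 and 0.46, adjusted p = 0.0542 and 0.0676), and that of Suv39h2 was not called without WT Th1 replicate 1, WT Th1 replicate 2 or KO Th1 replicate 1 (log2 0.84, 0.81 and 0.73, adjusted p = 0.0619, 0.0669 and 0.0794).

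Ehmt1 and Ehmt2 encode GLP and G9a, which mono- and dimethylate H3K9 as a pair. Ehmt2 had 260.1 and 248 CPM in WT Th1 and 193 and 207 CPM in KO Th1 (-0.34 ± 0.09, adjusted p = 0.00521), and 277 and 290.4 CPM in WT Th2 and 340.5 and 362 CPM in KO Th2 (0.31 ± 0.09, adjusted p = 0.00912). The KO libraries were lower in Th1 and higher in Th2, and the Th2 rise was not called without KO Th2 replicate 2 (log2 0.26, adjusted p = 0.0607). Ehmt1 was lower in both, with -0.26 ± 0.09 in Th1 and -0.42 ± 0.09 in Th2 (adjusted p = 0.0218 and 8.11e-04), and its change in Th1 did not pass without WT Th1 replicate 1, WT Th1 replicate 2 or KO Th1 replicate 1 (log2 -0.26, -0.29 and -0.20, adjusted p = 0.0954, 0.0591 and 0.175). Prdm2, which encodes RIZ1, was lower in KO naive cells, at 261 and 276 CPM in WT and 192 and 198 CPM in KO (-0.46 ± 0.07, adjusted p = 3.44e-04), and in KO Th1 cells, at 123 and 121 CPM in WT and 66.4 and 70.3 CPM in KO (-0.83 ± 0.08, adjusted p = 2.76e-07). In Th2 cells its libraries overlapped, at 89.4 and 89.1 CPM in WT and 96.2 and 85.3 CPM in KO. Setdb2 had 49.97 and 52.5 CPM in WT naive and 34.4 and 40.6 CPM in KO naive libraries (-0.45 ± 0.15, adjusted p = 0.0327), a call that was lost without WT naive replicate 1, WT naive replicate 2 or KO naive replicate 1 (log2 -0.49, -0.41 and -0.33, adjusted p = 0.0824, 0.165 and 0.267). Setdb1, which silences endogenous retroviruses, stayed within 90.5 to 107 CPM in all 20 libraries.

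Among the SMYD and other SET domain proteins, 4 of 8 fell in KO Th2 cells, where 26.9% of all genes did. In KO Th1 cells 2 of the 8 fell, a share of 25% that is near the 25.8% of all genes. Smyd5 (chromosome 6, 85431989 to 85446435, plus strand) was higher in WT Th2 than in WT Th1 cultures (Th1 against Th2 -1.74), with 104 and 99.1 CPM in WT Th2 against 32.8 and 36.1 CPM in WT naive and 28.6 and 32.2 CPM in WT Th1 libraries. In KO Th2 libraries it stood at 27.9 and 18.8 CPM, where both libraries lay below both WT naive and both WT Th1 libraries (-2.11 ± 0.18, adjusted p = 8.47e-08). KO naive and KO Th1 libraries held 29.7 and 29.2 CPM and 33.8 and 35.99 CPM, and the changes did not pass (-0.23 and 0.20). Smyd3, which has substrates in the cytoplasm as well as on histones, had 34.6 and 37.2 CPM in WT Th2 and 11.03 and 13.2 CPM in KO Th2 (-1.57 ± 0.16, adjusted p = 2.93e-07). It was also lower in KO naive cells, at 36.2 and 37.0 CPM in WT and 25.1 and 28.4 CPM in KO (-0.45 ± 0.14, adjusted p = 0.0278), and that call was lost without WT naive replicate 1, WT naive replicate 2 or KO naive replicate 1 (log2 -0.47, -0.43 and -0.36, adjusted p = 0.0790, 0.127 and 0.214). Smyd2, which also methylates p53, had 59.6 and 61.5 CPM in WT Th2 and 38.7 and 34.1 CPM in KO Th2 (-0.73 ± 0.15, adjusted p = 6.90e-04). Setd5 fell in both cultures (-0.56 in Th1 and -0.61 in Th2) and Kmt2e, also called MLL5, in Th1 (-0.78). Setd3, a methyltransferase of actin, was lower in KO naive cells (-0.32 ± 0.08, adjusted p = 0.00602). Setd7 and Smyd4 had values from -0.46 to 0.23 in the 3 states, and none passed.

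All 11 demethylases with a JmjC domain fell in KO Th1 cells (median -0.68), and this count was 11 under every alternative test, scaling, filter and omitted library. Of all genes tested, 25.8% were lower in KO Th1. In KO Th2 cells 4 of the 11 fell and 1 rose (median -0.16), against 26.9% and 26.5% of all genes. In KO naive cells 3 fell (median -0.11), against 12.4% of all genes. The Th1 effect was lower than the Th2 effect for 8 of the 11 and higher for 1 (all genes 24.3% and 22%). Kdm5b, which removes H3K4 methylation (chromosome 1, 134560171 to 134635285, plus strand), had the lowest value of the 45 genes. It stood at 357 and 348 CPM in WT Th1 and 76.1 and 82.5 CPM in KO Th1, 4.44-fold apart (-2.15 ± 0.15, adjusted p = 1.64e-08). WT cells raised Kdm5b from 154 and 150.3 CPM before culture, whereas KO naive cells held 86.6 and 102 CPM (-0.69 ± 0.15, adjusted p = 0.00278). In Th2 libraries the levels were 315 and 282 CPM in WT and 235 and 208 CPM in KO (-0.43 ± 0.14, adjusted p = 0.0177). KO libraries were thus below WT libraries in all 3 states, and the Th2 call alone was lost without WT Th2 replicate 1 or KO Th2 replicate 2 (log2 -0.33 and -0.35, adjusted p = 0.144 and 0.115). Its paralog Kdm5a had 214 and 209.9 CPM in WT Th1 and 116 and 120.4 CPM in KO Th1 (-0.84 ± 0.10, adjusted p = 5.43e-06), and 280.3 and 262 CPM in WT naive and 207 and 213 CPM in KO naive (-0.37 ± 0.10, adjusted p = 0.0134), the last lost without WT naive replicate 1 or KO naive replicate 1 (log2 -0.32 and -0.34, adjusted p = 0.0975 and 0.0972).

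In this set, the JmjC demethylases of H3K9 and H3K36 were all lower in KO Th1, by differing amounts, and differed in their Th2 values. Kdm4b, which acts on H3K9 and H3K36, had 141 and 142 CPM in WT Th1 and 64.8 and 66.7 CPM in KO Th1 (-1.11 ± 0.13, adjusted p = 2.63e-06), but 246 and 251 CPM in WT Th2 and 252 and 248 CPM in KO Th2 (0.01 ± 0.12, adjusted p = 0.964). Its genotypes thus stood apart in Th1 and overlapped in Th2. Kdm4a had 149.7 and 154 CPM in WT Th2 and 192 and 207 CPM in KO Th2 (0.39 ± 0.09, adjusted p = 9.58e-04) after a fall in Th1 of 0.49 on the log2 scale, and Kdm4c was lower in both cultures (-0.61 and -0.44). Kdm3a, a demethylase of H3K9, had 214 and 224 CPM in WT Th1 and 127 and 115 CPM in KO Th1 (-0.85 ± 0.14, adjusted p = 1.59e-04), and Kdm3b fell by 0.51 in Th1. Neither passed in naive or Th2 cells. Kdm2b, which acts on H3K36 and recruits a variant Polycomb complex to CpG islands, had 71.3 and 79.5 CPM in WT Th2 and 34.5 and 40.02 CPM in KO Th2 (-1.02 ± 0.10, adjusted p = 2.22e-07). Its Th1 levels were 152 and 155 CPM in WT and 88.6 and 103 CPM in KO (-0.68 ± 0.09, adjusted p = 1.34e-05). Kdm2a fell in Th1 by 0.68 and was at 0.05 in Th2. Phf2 had 208 and 228 CPM in WT naive and 153 and 167 CPM in KO naive libraries (-0.44 ± 0.10, adjusted p = 0.00540) and was lower in both cultures (-0.58 and -0.35), while Phf8 fell in Th1 (-0.58). The naive call of Phf2 was lost without WT naive replicate 2 or KO naive replicate 1 (log2 -0.37 and -0.38, adjusted p = 0.0675 and 0.0740) and its Th2 call without WT Th2 replicate 2 (log2 -0.32, adjusted p = 0.0615). Of the flavin-dependent pair, Kdm1a was lower in Th1 (-0.30 ± 0.07, adjusted p = 0.00209) and Th2 (-0.47 ± 0.07, adjusted p = 3.14e-05), and Kdm1b passed in none of the 3 states.

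**Figure D3:**
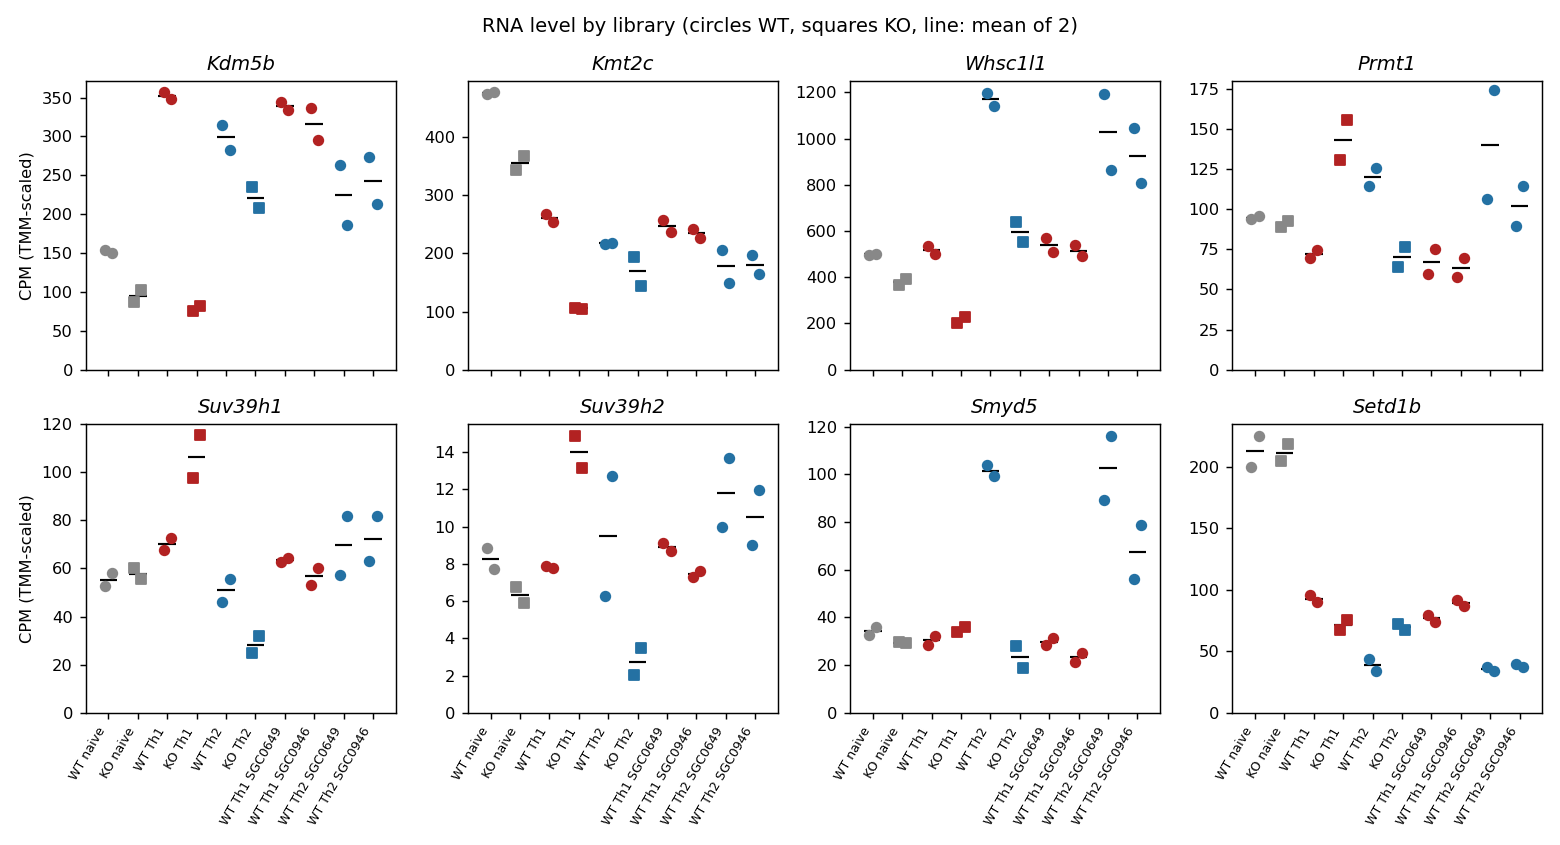
CPM of 8 genes (y axis, linear from 0) in each of the 20 libraries, 2 per group along the x axis, with a line at the mean. Kdm5b in KO Th1 lies at 76.1 and 82.5 CPM against 357 and 348 CPM in WT Th1, and Smyd5 in KO Th2 at 27.9 and 18.8 CPM against 104 and 99.1 CPM in WT Th2.

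The 3 arginine methyltransferases were higher in KO Th1 cells (median 0.52) and lower in KO Th2 cells (median -0.49). Of all genes tested, 24.8% were higher in KO Th1 and 26.9% lower in KO Th2. Prmt1, the main enzyme of asymmetric arginine dimethylation (chromosome 7, 44975989 to 44986568, minus strand), had 69.8 and 74.4 CPM in WT Th1 and 131 and 156 CPM in KO Th1, and 114 and 125 CPM in WT Th2 and 64.2 and 76.3 CPM in KO Th2. KO was above WT in Th1 (0.99 ± 0.19, adjusted p = 6.59e-04) and below it in Th2 (-0.77 ± 0.20, adjusted p = 0.00378) without overlap. Prmt5, which forms symmetric dimethylarginine (chromosome 14, 54507187 to 54517525, minus strand), had 80.2 and 94.1 CPM in WT Th1 and 122 and 129 CPM in KO Th1 (0.52 ± 0.15, adjusted p = 0.00807), and 73.5 and 89.0 CPM in WT Th2 and 61.0 and 54.0 CPM in KO Th2 (-0.49 ± 0.15, adjusted p = 0.0128). Carm1, a coactivator that methylates arginines of H3 (chromosome 9, 21546894 to 21589487, plus strand), had 67.8 and 72.7 CPM in WT Th1 and 87.5 and 100.5 CPM in KO Th1 (0.42 ± 0.14, adjusted p = 0.0201), and 68.4 and 77.7 CPM in WT Th2 and 52.1 and 51.5 CPM in KO Th2 (-0.49 ± 0.14, adjusted p = 0.00859). The difference between the Th1 and the Th2 effect was 1.76 ± 0.27 (adjusted p = 1.21e-04) for Prmt1, 1.02 ± 0.21 (adjusted p = 0.00112) for Prmt5 and 0.91 ± 0.20 (adjusted p = 0.00152) for Carm1. Without single libraries, the number of higher genes among the 3 in Th1 went down to 1 and the number of lower genes in Th2 to 1. In Th1, Prmt5 was not called without WT Th1 replicate 1 or KO Th1 replicate 2 (log2 0.40 and 0.47, adjusted p = 0.105 and 0.0585) and Carm1 without WT Th1 replicate 1, WT Th1 replicate 2 or KO Th1 replicate 2 (log2 0.36, 0.46 and 0.31, adjusted p = 0.138, 0.0622 and 0.175). In Th2, Prmt5 was not called without WT Th2 replicate 2 or KO Th2 replicate 2 (log2 -0.34 and -0.41, adjusted p = 0.161 and 0.0933) and Carm1 without WT Th2 replicate 2 (log2 -0.39, adjusted p = 0.0970). Prmt1 stayed called in both.

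Of 15 proliferation genes, 6 were called higher in KO Th1 cells (24.8% of all genes), 8 lower in KO Th2 cells (26.9%) and 6 higher in KO naive cells (16%). The sum of the 15 (among them Mki67, Top2a and Mcm2) was 3348 and 3668 CPM in WT Th1 and 4827 and 5176 CPM in KO Th1. It was 1951 and 2556 CPM in WT Th2 and 1054 and 1684 CPM in KO Th2, and 974 and 921 CPM in WT naive and 1406 and 1296 CPM in KO naive cells. No library of KO overlapped with WT in any state. The summed level of 8 mast cell and basophil genes was 164 and 122 CPM in WT Th1 and 1978 and 833 CPM in KO Th1, that of the 2 CD8 genes was 13.1 and 16.2 CPM in WT Th2 and 129.6 and 267 CPM in KO Th2, and that of 6 erythroid genes was 304 and 195 CPM in WT naive and 1257 and 306 CPM in KO naive cells. That of 8 myeloid genes was 379 and 285 CPM in WT naive and 952 and 467 CPM in KO naive cells. In Th2 cells the myeloid sum was 27.6 and 19.2 CPM in WT and 98.9 and 140.9 CPM in KO. No gene of these lists was at 0 in the groups named. The part of these differences in the results for the 45 genes was not tested.

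The inhibitor gave few of these calls after 4 days at 1 µM. In Th1 cultures, SGC0946 against SGC0649 gave 0 higher and 0 lower calls among the 45 genes in edgeR, with 0.405% of all genes called higher and 0.0612% lower. DESeq2 and limma voom called none either, and 4 of the 45 (Prdm2, Smyd2, Smyd4 and Kdm1b) were lower at an unadjusted p under 0.05. All 95% intervals of the 45 Th1 differences lay between -0.94 and 0.46 on the log2 scale. The 26 genes that fell in KO Th1 had a median of -0.60 in KO and -0.02 with SGC0946, and their effects under deletion and inhibition had the same sign for 16 of the 26. Kdm5b, for example, had 344 and 334 CPM with SGC0649 and 336 and 295 CPM with SGC0946, an overlap at a value of -0.10 ± 0.14 (adjusted p = 0.876). Prmt1 had 59.4 and 75.4 CPM with SGC0649 and 57.5 and 69.5 CPM with SGC0946 (-0.09 ± 0.20, adjusted p = 0.936). The effect of deletion differed from that of the inhibitor by its own test for 28 genes in Th1, 5 with a higher and 23 with a lower effect in KO (all genes 12.8% and 17.9%). These 28 included all 11 JmjC demethylases, with Kdm5b at -2.05 ± 0.20 (adjusted p = 3.59e-06). Of the 28, 20 stayed called whichever library was left out, and Kmt2a, Kmt2b, Kmt2d, Phf2, Prmt1, Prmt5, Suv39h1 and Suv39h2 did not.

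In Th2 cultures, SGC0946 gave 2 higher and 2 lower calls, against 5.45% and 2.51% of all genes. Kdm1b, the demethylase LSD2, had 19.9 and 24.2 CPM with SGC0649 and 13.4 and 15.2 CPM with SGC0946 (-0.63 ± 0.13, adjusted p = 0.00651), and its KO Th2 value was 0.08 ± 0.12 (adjusted p = 0.612). Smyd5 had 89.1 and 116 CPM with SGC0649 and 56.1 and 78.7 CPM with SGC0946 (-0.61 ± 0.17, adjusted p = 0.0354), the same direction as in KO Th2 cells. Its value was -0.40 without SGC0649 replicate 2 and -0.39 without SGC0946 replicate 1. Setd3 had 86.1 and 79.3 CPM and 105 and 95.5 CPM (0.28 ± 0.08, adjusted p = 0.0333), and Kdm2a 234 and 214 CPM and 280.2 and 264 CPM (0.28 ± 0.08, adjusted p = 0.0333). Separation of the groups was not particular to called genes. Of the 45 genes, both SGC0946 libraries lay above both SGC0649 libraries for 5 and below them for 9, and 31 overlapped. None of the 4 pairs of groups overlapped, yet none of the 4 calls held whichever library was left out. The count of 4 was 13 without SGC0649 replicate 1, 0 without SGC0649 replicate 2, 0 without SGC0946 replicate 1, and 0 when only the 4 libraries compared were fitted. The 19 genes that fell in KO Th2 had a median of -0.61 in KO and -0.15 with SGC0946, and 14 of the 19 had the same sign in both. Over all calls of KO Th2, 72.7% of the 22 genes and 71.6% of all 6980 genes had the same sign with SGC0946. In Th1 these shares were 51.5% of 33 and 56.3% of 6618. Deletion differed from inhibition in Th2 for 14 genes, 3 with a higher and 11 with a lower effect in KO (all genes 15% and 17%). That count was 9 without WT Th2 replicate 2.

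**Figure D4:**
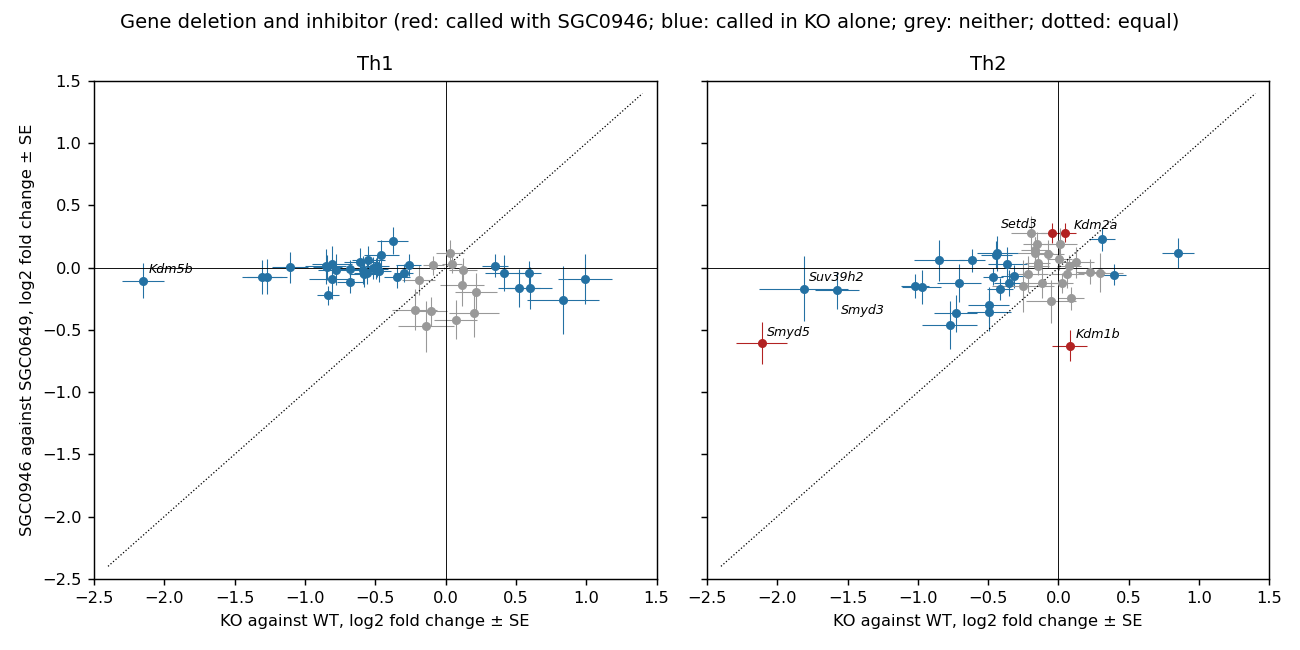
Log2 fold change ± SE of each of the 45 genes in KO against WT (x axis) and in SGC0946 against SGC0649 (y axis), in Th1 (left) and Th2 cultures (right), 2 libraries per group. Kdm5b lies at -2.15 on the x axis and near 0 on the y axis in Th1, and the 4 red points in Th2 are Kdm1b, Smyd5, Setd3 and Kdm2a.

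SGC0649 itself was compared with cultures without compound. In Th1 it gave 0 higher and 0 lower calls among the 45 genes (all genes 0.0153% and 0%), and 3 genes were lower at an unadjusted p under 0.05 (Kmt2a, Setd1b and Kdm2b). In Th2 it gave 0 and 0 (all genes 0.245% and 0.428%), and at an unadjusted p under 0.05 3 genes were higher and 8 lower. DESeq2 and limma voom called none in either culture. The Th2 count was 16 without SGC0649 replicate 1.

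Between WT naive and WT cultured cells, 27 of the 45 genes were called in Th1 and 31 in Th2, near or below the share of all genes. From WT naive to WT Th1 cells, 10 rose and 17 fell, against 34.3% and 33% of all genes, and from WT naive to WT Th2 cells 13 rose and 18 fell, against 36.9% and 35%. Markers moved in the same comparisons: from naive to Th1, 6 of 6 erythroid, 7 of 8 myeloid and 4 of 4 NK cell genes were lower and 15 of 15 proliferation genes higher, and from naive to Th2, 6 of 6, 6 of 8 and 4 of 4 were lower and 11 of 15 higher. Their part in the results was not tested. Genes of H3K4 methylation fell in both, 7 of 9 in Th1 and 7 of 9 in Th2. Setd1b showed the lowest value, from 200.2 and 225 CPM in WT naive to 44.0 and 33.6 CPM in WT Th2 (-2.45 ± 0.11, adjusted p = 6.38e-12). Kmt2d stood at 952 and 1040 CPM in WT naive cells and fell by 1.01 in Th1 and 1.57 in Th2 on the log2 scale. Setdb2 went from 49.97 and 52.5 CPM to 19.2 and 20.8 CPM in Th1 (-1.36 ± 0.15, adjusted p = 7.58e-07) and 12.96 and 13.5 CPM in Th2 (-1.95 ± 0.16, adjusted p = 1.19e-08), and Prdm2 fell in parallel (-1.14 and -1.59). Men1 was the gene of the H3K4 class that rose, from 44.5 and 53.0 CPM to 82.9 and 83.1 CPM in Th1 and 110 and 109 CPM in Th2 (0.77 and 1.17).

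The highest rise in Th1 was that of Whsc1, from 64.9 and 62.1 CPM to 222 and 241 CPM (1.87 ± 0.16, adjusted p = 4.88e-08), followed by Kdm2b, from 51.8 and 54.4 CPM to 152 and 155 CPM (1.53 ± 0.10, adjusted p = 4.67e-10). Kdm5b and Smyd2 followed, with 1.21 and 1.08. In Th2 the highest rises were those of Smyd2, from 15.5 and 21.6 CPM to 59.6 and 61.5 CPM (1.70 ± 0.16, adjusted p = 6.28e-08), and Smyd5 (1.56 ± 0.17, adjusted p = 6.68e-07), then Kdm4b, Whsc1 and Whsc1l1 (1.38, 1.38 and 1.23). Smyd3 fell in Th1 (-1.45 ± 0.15, adjusted p = 2.85e-07) and had a value of -0.03 in Th2. Between the WT cultures, 16 genes were higher in Th1 and 11 in Th2, against 26% and 27.3% of all genes. Setd1b, Kmt2a, Kdm2b, Kdm1b and Setd7 led the first (1.26, 1.06, 1.03, 0.80 and 0.64), and Smyd5, Smyd3, Whsc1l1, Kdm3a and Kdm4b led the second (-1.74, -1.42, -1.18, -0.87 and -0.81).

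In KO cells, 11 genes rose and 24 fell from naive to Th1 cells, against 36.2% and 34.8% of all genes, and 10 rose and 24 fell from naive to Th2 cells, against 34.2% and 34.9%. The counts of JmjC demethylases in Th1 were unlike in the 2 genotypes, without a test of the counts themselves: 5 of 11 rose and 3 fell in WT, while 1 rose and 8 fell in KO. Kdm5b went from 86.6 and 102 CPM in KO naive to 76.1 and 82.5 CPM in KO Th1 cells (-0.25 ± 0.15, adjusted p = 0.144), where WT cells gained 1.21 on the log2 scale. The difference between these, which is the Th1 effect of deletion minus the naive one, was -1.46 ± 0.21 (adjusted p = 1.08e-04). In KO Th2 cells Kdm5b rose (1.23 ± 0.15, adjusted p = 1.51e-06), as did Kdm4b and Kdm3a (1.45 and 0.96). Kmt2d, Kmt2c, Ash1l, Setd1b and Prdm2 fell the most from KO naive to KO Th1 cells (-1.86, -1.75, -1.60, -1.56 and -1.51), and Whsc1, Suv39h2, Smyd2, Suv39h1 and Kdm2b rose the most (1.73, 1.14, 0.99, 0.88 and 0.82). From KO naive to KO Th2 cells, Setd1b, Setdb2, Kmt2d, Kmt2a and Suv39h2 fell the most (-1.60, -1.56, -1.32, -1.27 and -1.24), the last call being lost without KO Th2 replicate 1 (log2 -0.87, adjusted p = 0.0610).

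The remaining genes among the leading changes between states had the following levels. Kmt2a stood at 578 and 604 CPM in WT naive, 554 and 528 CPM in WT Th1 and 263 and 257 CPM in WT Th2 libraries, so that the fall from naive cells was seen in Th2 (-1.18) and did not pass in Th1 (-0.13). Kdm1b had 33.1 and 36.2 CPM in WT Th1 and 20.1 and 19.7 CPM in WT Th2, and Setd7, which methylates H3K4 and many proteins outside chromatin, 206 and 197 CPM and 134 and 124 CPM, both higher in Th1 without overlap. Ash1l went from 203 and 222 CPM in KO naive to 65.4 and 74.6 CPM in KO Th1 libraries. Kmt2d went from 965 and 1090 CPM to 261 and 305 CPM in the same groups. Smyd2 went from 19.5 and 21.8 CPM to 39.0 and 43.4 CPM, the opposite direction.

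Transcript length is a property of these genes that their choice did not use. The 45 genes had a median summed exon length of 7112 bases against 3988 bases for all genes tested. At a threshold of 6000 bases, chosen after the values were seen, 20 of the 26 longer genes were lower in KO Th1 cells (median -0.55), where 36% of all 3428 genes of that length were lower (median -0.09). Of the 19 shorter genes, 6 were lower and 7 higher (median 0.12), so that all 7 rises in Th1 were among them. The median of all shorter genes tested was 0.05, and 25.8% of genes of any length were lower and 24.8% higher. Across the 45 genes, which are not independent replicates and share the same 4 libraries, Spearman's rho of exon length with the Th1 change was -0.66, against -0.12 over all 13072 genes. In Th2, rho was 0.12 and -0.04. There 8 of the 26 longer genes were lower, near the 31.9% of all genes of that length. Of the 19 shorter genes 11 were lower, where 26.9% of genes of any length were. Kdm4b, with 4895 bases, was the shorter gene with the lowest value in Th1 (-1.11). Length goes with enzyme class here, since the arginine methyltransferases are short and the Kmt2 enzymes long, and the part of either in the result was not tested.

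**Figure D5:**
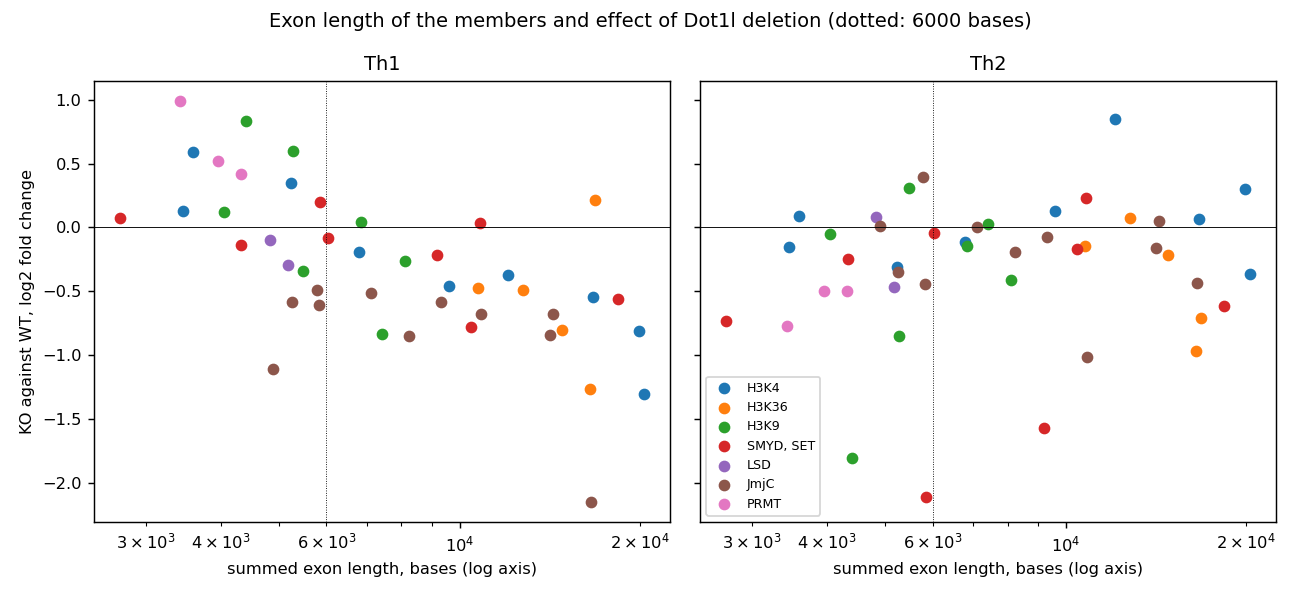
Summed exon length in bases (x axis, log scale, dotted line at 6000) against the log2 fold change of KO against WT (y axis) for the 45 genes, coloured by class, in Th1 (left) and Th2 (right). In Th1 the points above 0 that passed lie left of the dotted line, and in Th2 the genes below -1.5 (Smyd5, Suv39h2 and Smyd3) lie on both sides of it.

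A wider list of 64 genes of histone methylation, of which 62 were tested, was counted in the same comparisons. In KO naive cells 3 were higher and 11 lower (16% and 12.4% of all genes), in KO Th1 cells 11 and 22 (24.8% and 25.8%), and in KO Th2 cells 5 and 25 (26.5% and 26.9%). The naive total of 14 was 5 without KO naive replicate 1 and 6 without either WT naive library. With SGC0946, 0 were higher and 0 lower in Th1, and 1 was higher and 2 lower in Th2. In KO Th1 cells the called genes furthest from 0 were Smyd1, at 0.509 and 0.745 CPM in WT and 0.0774 and 0 CPM in KO, too few counts for a fold change, Phf21a, a partner of LSD1 (-1.19), and Phf19, an accessory subunit of Polycomb repressive complex PRC2 (1.14). Kdm7a, a JmjC demethylase outside the 45, fell by 1.14 in Th1 and 0.93 in Th2 on the log2 scale. It is 1 of 10 further demethylases tested, of which 4 were lower and 0 higher in KO Th1 (median -0.26). The same counts, 4 lower and 0 higher, were found in KO Th2 (median -0.43). In KO Th2 cells the called genes furthest from 0 were Ezh2, the catalytic subunit of PRC2 (-1.81), Prdm9 (-1.18) and Hdac2, a deacetylase found with LSD1 (-1.10). In KO naive cells they were Rcor2 (1.44), Phf19 (0.98) and N6amt1 (-0.71).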

How the data were processed

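The 20 libraries were mapped to groups by their titles. Counts per gene are the authors' deposited values, which per the file headers come from featureCounts 1.5.3 (strand setting 2) and Ensembl release 84 of GRCm38. The summed exon length of each gene, in bases, comes from the same deposited table, per the file headers. The submitters' processing notes also name edgeR and limma. The aligner is not given in the sources used here. The column names of 2 SGC0946 libraries give replicate 1 where the titles give 2, and were matched by the library number that title and column share.

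Protein-coding counts, 9704500 to 13025588 per library, were filtered with filterByExpr (minimum count 10) to 13072 genes, scaled by TMM and fitted with edgeR 4.0.16 in R 4.3.3 (quasi-likelihood, 1 mean per group, all 20 libraries, 10 residual degrees of freedom). The Benjamini-Hochberg adjustment covered all genes tested, and an adjusted p under 0.05 was a call. This covered 17 comparisons, 5 of them differences between effects. Levels are CPM after TMM scaling. The script was tested on simulated data. Alternatives were RLE scaling, DESeq2 1.42.0, limma voom (limma 3.58.1), no filter on low counts, all annotated genes, a replicate block, only the libraries compared, and each library left out in turn. The 45 genes, the lists and the tests were chosen with earlier results of these data known. Every gene is named at least once. Values in every library are given for up to 8 called genes in each direction by absolute log2 fold change in the 5 comparisons of KO with WT and of SGC0946 with SGC0649, and log2 fold changes, mostly with these values, for up to 5 in the others and for paralog pairs. Of other lists, up to 3 called genes per comparison are named.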

Additional observations from a re-analysis of the deposited data

Results flagged for a closer look

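The values below were picked out because the effects of the same contrast differed between cell states, or between deletion and inhibition, by a test of the difference itself (edgeR's quasi-likelihood test, adjusted p under 0.05 over 13072 genes). Values are differences of log2 fold changes. No explanation was tested.

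The effect of deletion in Th1 cells minus that in naive cells passed for 25 of the 45 genes. It was higher in Th1 for Suv39h2 (1.22), Prmt1 (1.05), Wdr5 (0.62), Carm1 (0.62) and Ash2l (0.50), and lower in Th1 for Kdm5b (-1.46), Kdm4b (-1.05), Kmt2c (-0.88), Whsc1l1 (-0.88) and Kmt2d (-0.85). Of the 25, 12 stayed called whichever library was left out, and of the named ones Suv39h2, Carm1 and Kmt2d did not. The effect of deletion in Th2 cells minus that in naive cells passed for 16 of the 45 genes. It was higher in Th2 for Setd1b (0.85), Prdm2 (0.48) and Kdm4a (0.47), and lower in Th2 for Smyd5 (-1.88), Suv39h2 (-1.42), Smyd3 (-1.12), Whsc1 (-1.06) and Kdm2b (-1.05). Of the 16, 10 stayed called whichever library was left out, and of the named ones Suv39h2 did not. Without WT Th2 replicate 2, the difference of Suv39h2 was -0.83 (adjusted p = 0.117). The effect of deletion in Th1 minus that in Th2 cells passed for 31 of the 45 genes. It was higher in Th1 for Suv39h2 (2.65), Smyd5 (2.31), Prmt1 (1.76), Suv39h1 (1.45) and Smyd3 (1.35), and lower in Th1 for Kdm5b (-1.72), Setd1b (-1.22), Kdm4b (-1.12), Kmt2d (-1.11) and Kmt2c (-0.94). Of the 31, 28 stayed called whichever library was left out.

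In Th1 cells, the effect of deletion minus that of SGC0946 passed for 28 of the 45 genes. It was higher under deletion for Suv39h2 (1.09), Prmt1 (1.08), Suv39h1 (0.76), Prmt5 (0.68) and Wdr5 (0.63), and lower under deletion for Kdm5b (-2.05), Kmt2c (-1.23), Whsc1l1 (-1.20), Kdm4b (-1.11) and Kdm3a (-0.86). Of the 28, 20 stayed called whichever library was left out, and of the named ones Suv39h2, Prmt1, Suv39h1 and Prmt5 did not. In Th2 cells, the effect of deletion minus that of SGC0946 passed for 14 of the 45 genes. It was higher under deletion for Setd1b (0.73), Kdm1b (0.71) and Kdm4a (0.45), and lower under deletion for Suv39h2 (-1.64), Smyd5 (-1.50), Smyd3 (-1.39), Suv39h1 (-0.91) and Kdm2b (-0.87). Of the 14, 9 stayed called whichever library was left out, and of the named ones Suv39h2 and Suv39h1 did not. Without WT Th2 replicate 2, that of Suv39h2 was -1.04 (adjusted p = 0.0511).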

How the results depend on the processing

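Over the 134 results for named genes, 1658 alternatives were run: 1569 kept the call, 89 lost it, 78 of these with a library left out, and 0 changed sign. With each library left out in turn, the number of the 45 genes called was 3 to 7 in KO against WT naive cells (10 in all libraries), 0 to 13 for SGC0946 in Th2 (4), 0 to 16 for SGC0649 in Th2 (0), 15 to 25 for the Th1 minus the naive effect (25) and 9 to 21 for the KO minus the SGC0946 effect in Th2 (14). With only the libraries compared, the count was 1 for SGC0946 in Th1 and 1 for SGC0649 in Th1 (0 in both), 0 for SGC0946 in Th2 and 8 for the KO minus the SGC0946 effect in Th2. Without a filter it was 2 for SGC0946 in Th2, and with all annotated genes 2. The cause was not tested. Other totals of the 45 genes called (higher and lower together) stayed within 1.5 times, while counts by direction and by class moved more. Over all alternatives, with all libraries first, the lower genes of the H3K4 class went from 5 to between 3 and 6 in Th1 and from 2 to between 0 and 2 in both naive and Th2 cells. The higher genes of the H3K9 class went from 2 to between 0 and 2 in Th1 and from 1 to between 0 and 1 in Th2. In naive cells, the lower genes went from 1 to between 0 and 1 (H3K36), from 2 to between 1 and 2 (H3K9), from 2 to between 1 and 3 (SMYD and other SET proteins) and from 3 to between 1 and 3 (JmjC). Of the 62 other genes of histone methylation, 14 were called in naive cells and 5 to 6 without WT naive replicate 1, WT naive replicate 2 or KO naive replicate 1. For SGC0946 in Th2 cells, 3 of the 62 were called and 0 to 14 over the alternatives.

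The replicate numbers are not stated to mark shared animals or days. Deviations of same-numbered libraries correlated at 0.19 to 0.70 over the 15 pairs of WT culture groups and at -0.11 to 0.70 over all 45 pairs of groups (9298 genes). With a replicate block no called gene of the KO comparisons was lost. The counts were 13 in naive cells (2 higher, Whsc1 and Prmt5, and 11 lower, Smyd4 being added), 33 in Th1 and 23 in Th2 cells (Setd7 added, higher), and the block gave 1 call for SGC0649 in Th2 (Suv39h1). The 2 libraries per group limit the precision. The spread between replicates was widest in WT Th2 with SGC0649 (SD of the log2 difference over the 45 genes 0.34) and narrowest in WT Th1 (0.10).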
